A study of Mus musculus with 2 samples.

Results

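The large Sfmbt2 intron on mouse chromosome 2 holds a dense array of microRNA genes that are near copies of each other, and their counts in adult heart are described here. The members are the microRNA genes of GENCODE M21 whose symbol starts with Mir and whose hairpin lies entirely within Sfmbt2 on the strand of that gene. The rule uses symbol, position and strand and no measured value. It gave 71 of the 2202 microRNA genes in the count files. All 71 belong to 4 families by symbol, with 29 Mir669, 23 Mir466, 14 Mir467 and 5 Mir297 genes.

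The counts come from small RNA sequencing of male whole heart at an age of 2 months. The strain was B6CASTF1/J, an F1 cross between C57BL/6J and the wild-derived CAST/EiJ. There was 1 group of 2 libraries, with no treatment and no genetic change named. The sample descriptions number the libraries as biological replicates 1 and 2, although both carry 1 donor identifier. Whether they come from 2 animals is not settled, so the spread between the libraries may be partly or wholly technical. Reads of both parental genomes were placed on mm10, and the files do not separate the alleles. In whole tissue, fewer cells that make a microRNA and less of it per cell cannot be told apart.

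As background, a microRNA is cut from a hairpin in a longer primary transcript. One arm is loaded onto an Argonaute protein, and bases 2 to 8 of it, the seed, pair with target messenger RNAs. Sfmbt2 encodes a Polycomb group protein with MBT repeats, a class of protein that takes part in gene silencing. It is an imprinted gene, expressed from the paternal allele in extraembryonic tissue, and its microRNA cluster is known from rodents, where it is studied mainly in placenta and embryonic stem cells. The families are rich in alternating T and G or A and C, and reads from such copies often match several places in a genome.

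Sequence shows what kind of microRNAs these families are. Mature sequences were read from a set of RefSeq sequences (GRCm38.p6). RefSeq lists all 71 members by symbol and position, but the set at hand held mature sequences for 0 of them. It held them for 8 of the 10 genes of the same 4 families that lie elsewhere in the genome. The 5 below show how the alternating bases run through the mature strand. They are written 5′ to 3′ with the seed in capitals. They come from chromosome 3 (miR-466q, 28419988 to 28420007, plus strand, and miR-669n, 115979905 to 115979924, plus strand), chromosome 13 (miR-466i-3p, 17747552 to 17747573, plus strand), chromosome 11 (miR-467f, 69635419 to 69635439, minus strand) and chromosome 9 (miR-467h, 115381898 to 115381919, plus strand).
miR-466q: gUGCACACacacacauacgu
miR-466i-3p: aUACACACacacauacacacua
miR-467f: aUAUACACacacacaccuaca
miR-467h: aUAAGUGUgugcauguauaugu
miR-669n: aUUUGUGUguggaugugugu

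These related sequences were distinct from the members as whole mature strands. The 8 mature sequences of these genes had 8 different seeds, and none of the 8 was found whole in a member hairpin on either strand. Each held an unbroken alternating run of 7 to 12 bases. The letters of the seeds occurred somewhere in 1 (miR-467h) to 62 (miR-467g) of the 71 member hairpins, and those of the miR-466i-3p seed in 46. Such a match says nothing of where the mature strand of a member begins.

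All members lay in a single intron. They spanned 51.6 kb of chromosome 2, from 10466663 to 10518279 of mm10, within Sfmbt2 (10370510 to 10595253, plus strand). That intron runs from 10461473 to 10523944 and is number 10 or 11 of 22, depending on the protein-coding transcript. No member hairpin overlapped an annotated exon of Sfmbt2. The intron also holds predicted microRNA genes without a Mir symbol, and with them Sfmbt2 contains 48 more rows of the count files, of which 3 had a count and none had more than 2 counts in a library.

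The libraries had 3650782 (replicate 1) and 3810675 (replicate 2) reads in the sense of a microRNA gene, and CPM means counts per 1000000 of these. The files count a read only where it has a single place in the genome. Reads with several places made up 48.0% of replicate 1 and 46.4% of replicate 2, and no gene is named for them. A member's count therefore covers reads with a single place only. For these, a count of 0 allows a level of 0.822 CPM (replicate 1) or 0.787 CPM (replicate 2). These floors (3 counts) and all intervals given here cover counting error only, since the files give reads and not molecular identifiers. Counts were not divided by hairpin length, because reads come from the mature strands and not from the whole hairpin.

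Heart carried reads with a single place in this cluster, and nearly all of these reads came from 7 genes. A count in at least 1 library was found for 12 of 71 members, and the other 59 were silent in both. Together the cluster had 4020 and 4077 counts in the libraries. The share of microRNA counts was 0.110% (0.107 to 0.114, Clopper-Pearson 95% limits) for replicate 1. For replicate 2 it was 0.107% (0.104 to 0.110), giving a mean of 0.109% ± 0.00221 (SD, n = 2). The same 7 members reached 2 CPM in both libraries and had at least 10 counts in each. All further members together had 11 counts in replicate 1 and 3 in replicate 2. Over all 2202 genes, 32.8% had a count and 15.3% reached 2 CPM in both libraries, against 16.9% and 9.86% of the members. However, 32 of the 71 members have no 22-base stretch that is absent from every other microRNA gene. For reads of that length their zeros were fixed in advance, so the lower percentages of the members do not tell of expression.

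**Figure D1:**
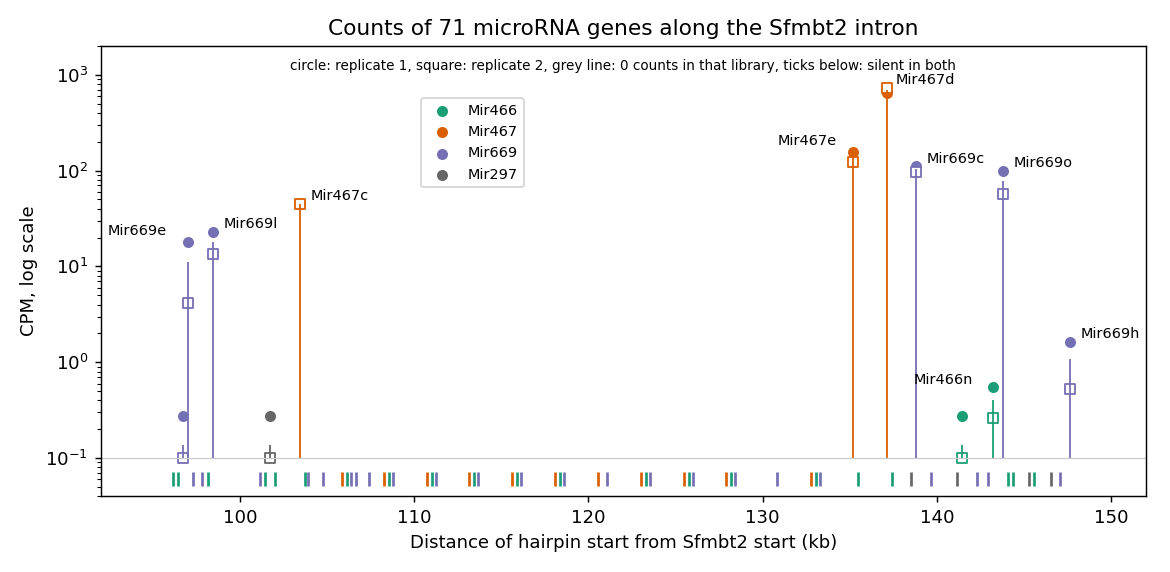
CPM (log axis) of the 71 members against the distance of the hairpin start from the start of Sfmbt2 in kb, coloured by family. Circles are replicate 1, squares are replicate 2, vertical lines reach up to the mean, symbols on the grey line had 0 counts in that library, and ticks mark members silent in both. The counted members sit at both ends of the array, with 38 silent members in a row between Mir467c and Mir467e. Of these 38, 31 have no 22-base stretch of their own, so 22-base reads from them are not counted.

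By reads with a single place, Mir467d led the cluster. This gene (10507630 to 10507714) was read 2355 and 2786 times in the libraries, or at 645 and 731 CPM. Its mean of 688 CPM ± 60.8 (SD, n = 2) ranked 79 among the 2202 genes. Its part of the cluster's counts was 58.6% (57.0 to 60.1, Clopper-Pearson 95% limits) in the first library and 68.3% (66.9 to 69.8) in the second. The values of Mir467d did not overlap with those of any other member.

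Its nearest counted members, Mir467e upstream and Mir669c downstream, were the second and the third most counted, with silent genes in between. Mir467e (10505721 to 10505807) was at 157 CPM in replicate 1 and 122 CPM in replicate 2, a mean of 139 CPM ± 24.9 (SD, n = 2). Mir669c (10509296 to 10509404) was at 110 and 96.3 CPM, a mean of 103 CPM ± 9.96. The lowest Mir467e value stood above the highest Mir669c value, so these genes did not overlap. Mir669o (10514300 to 10514395) was at 99.98 and 57.2 CPM, a mean of 78.6 CPM ± 30.2. Its replicate 1 value exceeded the replicate 2 value of Mir669c, so their order is within the spread of the libraries.

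The other members above 2 CPM lay at the upstream end of the array. Mir467c (10473931 to 10474027) was read 163 and 172 times, or at 44.6 and 45.1 CPM. Its mean of 44.9 CPM ± 0.345 (SD, n = 2) had the narrowest spread of the 7. Mir669l (10468971 to 10469068) was at 23.0 and 13.4 CPM, and Mir669e (10467495 to 10467613) at 18.1 and 4.20 CPM. The values of Mir669l and Mir669e overlapped between the libraries. From Mir467d down to Mir669e, all 6 steps had the same order within each library, and the libraries' values overlapped for 2 of the 6.

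The remaining 5 counted members were at the limit of the data. Mir669h was read 6 and 2 times, and Mir466n 2 times and 1 time. Mir669f, Mir297a-2 and Mir466d had a single read each, all in replicate 1. At this depth these 5 genes cannot be ranked, and the Poisson 95% interval of the single read of Mir669f reaches 1.53 CPM.

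**Figure D2:**
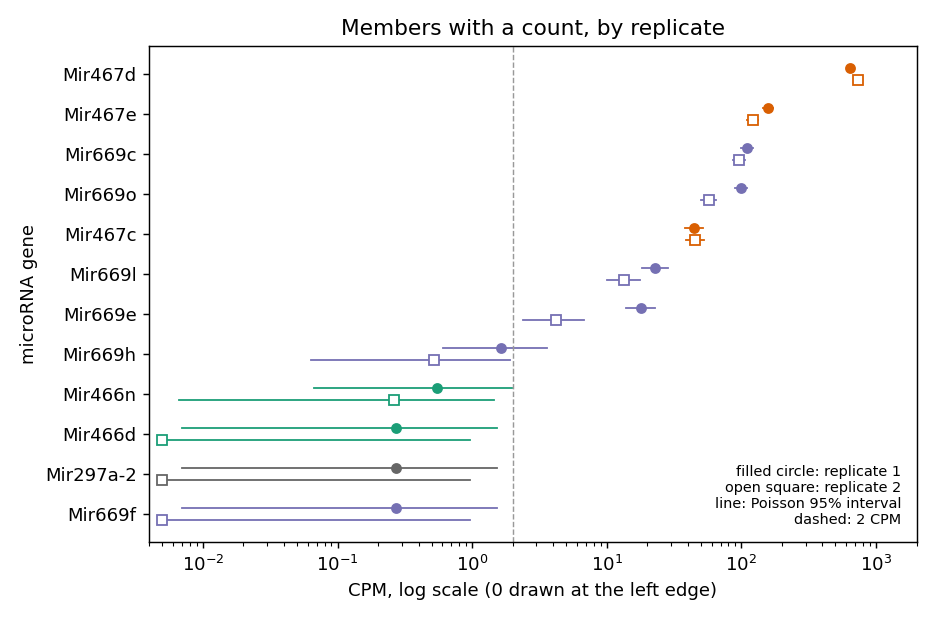
CPM (log axis) of the 12 members with a count, filled circles for replicate 1 and open squares for replicate 2, with Poisson 95% intervals and values of 0 drawn at the left edge. The 7 genes beyond the dashed line at 2 CPM have narrow counting intervals, while those of the 5 lowest genes are wide on this axis.

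By family, the counted reads belonged to Mir467 and Mir669. Of 14 Mir467 genes, 3 had counts, and they held 76.9% (75.6 to 78.2, Clopper-Pearson 95% limits) of the cluster's counts in the first library and 83.9% (82.8 to 85.0) in the second. Of 29 Mir669 genes, 6 had counts, and they held 23.0% (21.7 to 24.3) and 16.0% (14.9 to 17.2). For both families the limits of the libraries did not overlap. Mir467d decides which family leads: without it, Mir467 held a mean of 46.7% and Mir669 of 53.1% of the remaining counts.

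Mir466 and Mir297 were nearly silent. Of 23 Mir466 genes, 2 had counts, and the whole family was read 3 times in replicate 1 and 1 time in replicate 2. Of 5 Mir297 genes, Mir297a-2 alone had a count. How the reads with several places divide among the families was not tested.

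**Figure D3:**
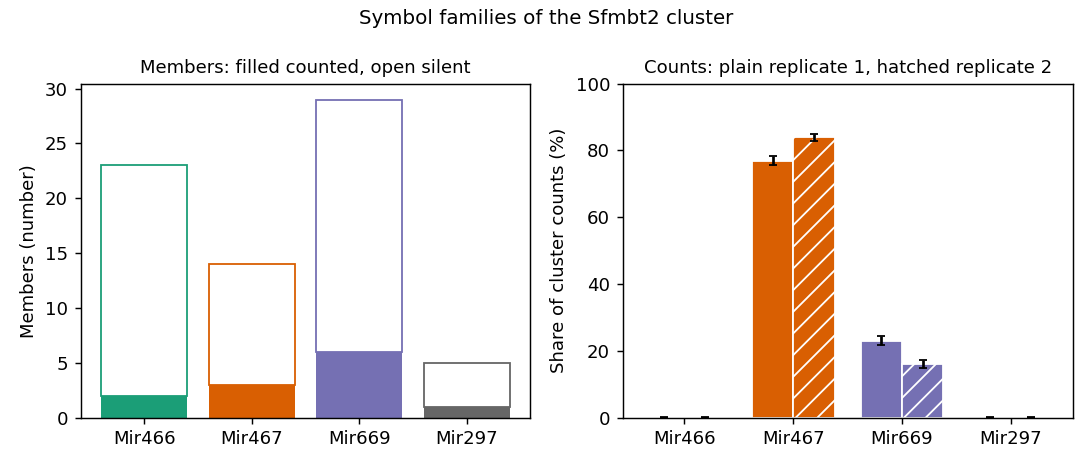
Left, the number of members of each family, with counted members filled and silent members open. Right, the share of the cluster's counts (%) by family, plain bars for replicate 1 and hatched bars for replicate 2, with Clopper-Pearson 95% intervals. Mir466 has 23 members and almost no counts, while Mir467 has 14 members and most of the counts.

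The counted members lay at the ends of the array. From Mir466b-1 to Mir669a-12, 38 members in a row had no count in either library, over 29.7 kb (10474219 to 10503877). Mir467c bounds this stretch upstream and Mir467e downstream. Upstream, 5 of 13 members had a count, and downstream 7 of 20. The silent stretch holds all 10 Mir467a genes, whose starts were a median of 2462 bases apart, with a range of 2413 to 4880. The Mir467b hairpin lies in the step from Mir467a-2 to Mir467a-3, which is 4880 bases long. The step from Mir467a-9 to Mir467a-10 has the same length and holds no Mir467 gene. Each of the 38 hairpins holds 47 or more unbroken bases that also occur in a different microRNA gene. Of the 38, 31 have no 22-base stretch of their own, so 22-base reads from them are not counted. In the others, at most 40% of such stretches are their own. Whether the members of this stretch are expressed was not tested.

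Many members are exact copies. The 71 hairpins have 53 different sequences, and 24 members have at least 1 identical twin in the cluster. The largest sets are Mir669a-4 to Mir669a-12, with 9 identical hairpins of 87 bases, and 6 identical Mir467a hairpins of 83 bases (Mir467a-2, Mir467a-4, Mir467a-5, Mir467a-7, Mir467a-8 and Mir467a-9). A further set joins Mir467a-3, Mir467a-6 and Mir467a-10. Pairs were formed by Mir466b-4 and Mir466b-6, by Mir466b-5 and Mir466b-7, and by Mir669p-1 and Mir669p-2. None of these 24 genes had a count, and a read that lies within such a hairpin matches more than 1 place by construction.

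Shared sequence reached well beyond identical copies. An unbroken stretch of at least 20 bases shared with another microRNA gene, on either strand, was found in 70 of 71 members, against 49.4% of all 2202 genes. All 12 counted members have such a stretch. The longest shared stretch was a median of 47.5 bases in the 12 counted members (range 24 to 60) and 83 bases in the 59 silent ones (range 16 to 113). The silent ones include 32 members with no 22-base stretch of their own, so their zeros were fixed in advance for reads of that length. Among these 32 are the 24 members with identical twins, where no read within the hairpin could be counted. The difference between the medians therefore does not tell of expression. Mir467d shares 60 bases with Mir467a-10, and Mir467c and Mir467e share 48 with each other.

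A finer measure was how much of a hairpin is its own, given as the share of its 22-base windows found in no other microRNA gene. All windows of a hairpin weigh alike in this share, although reads come from the mature strands, which were not measured apart. No window of their own was left in 32 members, and 0 of these 32 had a count. A 22-base read from these hairpins has more than 1 place by construction, so their zeros were fixed in advance for reads of that length. Between 0 and 25% lay 3 members, again with none counted. From 25 to 50%, 3 of 21 members had a count, and above 50% 9 of 15. Counted members had a median of 58.8% (range 36.0 to 96.9) and silent members a median of 0% (range 0 to 100). Across the 71 members the Spearman rho between this share and mean CPM was 0.51, as a description only, since the points share libraries and sequence. The silent median and this rho both include the 32 members with fixed zeros, so neither tells of expression.

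**Figure D4:**
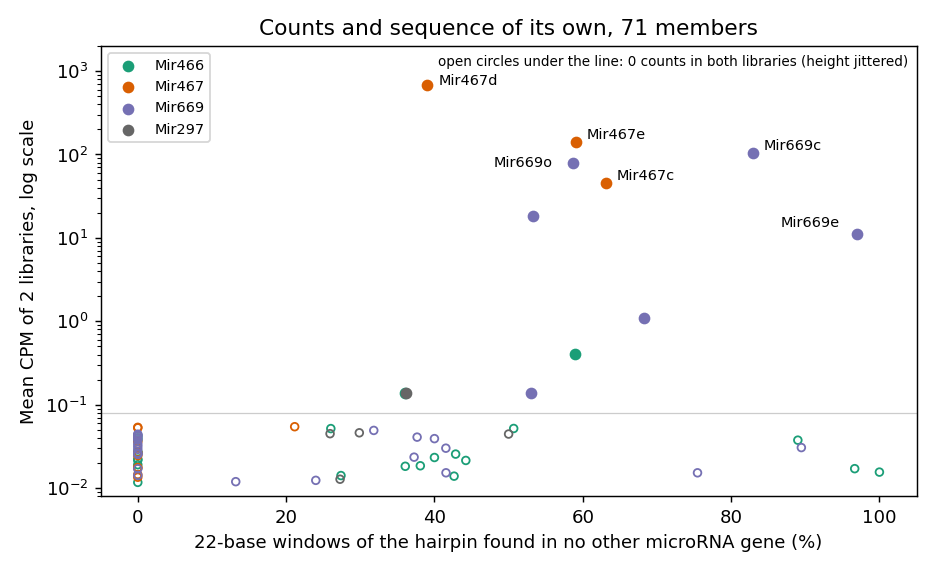
Mean CPM of 2 libraries (log axis) against the share (%) of 22-base hairpin windows found in no other microRNA gene, for the 71 members coloured by family, filled where counted. Open circles under the grey line had 0 counts and are spread in height only to be seen. The 32 members at 0% are all silent, which is fixed in advance for 22-base reads. Mir467d has the highest mean CPM at 39.1%, and 6 silent members lie above 50%.

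Among the 7 leading genes the order of levels was not that of this share, and some silent genes have sequence of their own. Mir467d has 39.1% own windows and the highest level, while Mir669e has 96.9% and the lowest level of the 7. Silent members above 50% were Mir466g (100%), Mir466h (96.7%), Mir669b (89.5%), Mir466l (89.0%), Mir669i (75.5%) and Mir466f-1 (50.7%), named after their values were seen. Copies elsewhere in the genome were not searched, because a genome sequence was not used here, and whether their reads have several places was not tested.

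At the upstream end the first 6 silent members give examples of sharing outside the long silent stretch. In order they are Mir466m, Mir466f-1, Mir669b, Mir669d, Mir466f-2 and Mir669d-2. Their longest shared stretches were 51, 48, 29, 57, 74 and 46 bases. Each kept some windows of its own, from 27.4% in Mir466f-2 to 89.5% in Mir669b. Silent members downstream of the long stretch reached further, from 16 shared bases in Mir466g to 93 in Mir669a-2, which kept no window of its own.

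Base composition is given as a description. The member hairpins had a median GC content of 36.1%, against 50.8% over all 2202 genes. Their longest unbroken alternation of T and G or of A and C was a median of 9 bases, with a range of 7 to 15, against a median of 4 over all genes. Neither trait is particular to the cluster: the 10 genes of the same families elsewhere had a median GC content of 38.9% and a median run of 13 bases, and the 48 other microRNA genes in Sfmbt2 had 38.9% and 8 bases. Within the cluster the median run was 9.5 bases in counted and 9 in silent members, and the median GC content 40.1% and 35.6%.

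The counts were all in the sense of the hairpins. No member had a read on the opposite strand in either library, and no microRNA gene of the files lies on that strand within Sfmbt2. The counts without regard to strand were the same for 71 of 71 members.

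The libraries were then compared gene by gene, which sets 2 libraries of 1 group side by side and compares no conditions. Of all genes past the low-count filter, 206 of 320 (64.4%) differed beyond counting noise, with 33.8% of genes higher in replicate 1 and 30.6% higher in replicate 2. Of the 7 members tested, 5 differed, 4 of them higher in replicate 1 and 1 in replicate 2. A share of 5 in 7 is close to that background. The median absolute log2 ratio was 0.38 over the 7 members and 0.44 over the 320 genes.

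All 4 Mir669 genes tested had a lower value in replicate 2, and 3 of them passed the test, where 33.8% of the 320 genes did so in that direction. Ratios here set replicate 2 over replicate 1. Mir669e was read 66 and 16 times, a log2 ratio of -2.12 (95% interval -3.01 to -1.32; exact binomial test, Benjamini-Hochberg adjusted p = 1.49e-08). Mir669o had a log2 ratio of -0.82 (-1.07 to -0.57; exact test, adjusted p = 6.18e-11) and Mir669l one of -0.79 (-1.33 to -0.28; exact test, adjusted p = 0.00351). Mir669c had -0.21 (-0.42 to -0.0024; exact test, adjusted p = 0.0664) and passed the threshold with DESeq2 size factors only, at an adjusted p of 0.0443 by the exact test.

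Among the Mir467 genes the directions were mixed. Mir467d had a log2 ratio of 0.17 (95% interval 0.09 to 0.25; exact binomial test, adjusted p = 7.27e-05) and Mir467e one of -0.38 (-0.56 to -0.20; exact test, adjusted p = 5.83e-05). Mir467c had 0.00 (-0.32 to 0.32; exact test, adjusted p = 1). Mir467e and Mir467d, which lie near each other in the intron, thus differed in opposite directions. Whether the replicates are different animals is not settled. With a single library per replicate, any difference between animals cannot be told apart from one of library preparation.

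Relatives outside the intron were almost without counts. The 10 genes of the same families elsewhere were read 3 times in replicate 1 and 0 times in replicate 2, all from Mir466q on chromosome 3, whose mature sequence is given above. A stretch of 20 bases or more in common with a different microRNA gene was found in 9 of the 10. Their hairpins kept a median of 77.0% own windows, against 25.9% in the 71 members.

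Another imprinted microRNA cluster, between Meg3 and Mirg on chromosome 12, gives a scale. It held 0.312% ± 0.00132 of the counts (SD, n = 2), against 0.109% ± 0.00221 for the Sfmbt2 cluster, and the libraries' values do not overlap. Of its 66 genes, 49 had a count, and its leading genes Mir127, Mir411 and Mir541 were at 1049 CPM ± 50.2, 362 CPM ± 64.5 and 306 CPM ± 45.9 (SD, n = 2 each). Of the 66, 8 have a shared stretch of that length. By these counts Mir467d lay between Mir127 and Mir411. Reads with several places are missing from both sums, so the ratio between the clusters holds for reads with a single place only.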

How the data were processed

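Raw read counts per microRNA gene were deposited by the authors, each library in a file of its own, on mm10 with the GENCODE M21 annotation per the accompanying deposited text. The aligner is not given in the sources used here. A file holds 2202 gene rows, 4 rows that name no gene (64.8% and 63.6% of reads, left out) and 3 columns, unstranded, sense and antisense, identified from their totals and the row of ambiguous reads because the files have no header. The sense column was used. CPM were computed from the deposited counts over all gene rows.

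Positions, introns and hairpins came from GENCODE M21, and all 71 members matched RefSeq by symbol and position. Shared stretches were searched among the 2202 hairpins on both strands with Python 3.11.15.

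Differences between libraries were tested per gene over all genes past filterByExpr with an exact two-sided binomial test against TMM library sizes over those genes (edgeR 4.0.16, R 4.3.3), adjusted after Benjamini-Hochberg at a threshold of 0.05. The script was tested on simulated data. Alternatives were DESeq2 1.42.0 size factors, plain sums, no filter, other strand, limits and denominators, and each replicate left out.

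Named genes were, by rule, the 12 members with the highest mean CPM, all that passed the filter, the most counted of each family, the first 6 silent members by position and the 3 most counted genes of each outside group. The members, lists and rules were chosen with earlier results of these data known.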

Additional observations from a re-analysis of the deposited data

How the results depend on the processing

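The cluster's share of microRNA counts of 0.109% was 0.141% without regard to strand, where the total is smaller, 0.0957% over all reads with a single place, and 0.125% with the most abundant gene left out of the total. It ranged from 0.107 to 0.110% with a replicate left out. The share of the chromosome 12 cluster was 0.379% without strand. With Mir467d left out, the families held 46.7% (Mir467), 53.1% (Mir669), 0.129% (Mir466) and 0.03003% (Mir297). Mir467c, not called, had a log2 ratio of -0.017 with DESeq2 size factors. The number of counted members was 8 at 3 or more counts and 9 without replicate 1. Detected members numbered 6 at 5 CPM and 7 in the other settings. Members differing between the libraries numbered 6 with DESeq2 size factors and 5 in the other 3 settings. The count of members without an own stretch was 32 at 18 and 20 bases and 31 at 25 bases, an alternative chosen after seeing the data. No paired analysis was possible because the libraries form 1 group. The test between libraries cannot be run with a replicate left out.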
